A study of Ovis aries with 57 samples.

Results

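The sheep conceptus, that is the embryo together with its membranes, was compared between day 20 and day 16 of pregnancy across all genes. The comparison rests on 8 whole-conceptus RNA libraries, 4 of day 16 (replicates 1, 2, 4 and 5) and 4 of day 20 (replicates 1, 3, 4 and 5), out of 57 libraries in the series and 17 of conceptuses. Conceptuses had been washed out of the uterine horn of pregnant ewes and frozen, no treatment or genotype is given, and libraries were made from RNA depleted of ribosomal RNA. The study followed the luminal and glandular epithelium of the uterus and the conceptus through early pregnancy. The labels do not say whether a library holds 1 conceptus or several, nor which parts of a conceptus went into it. The p-values therefore set differences against the spread between libraries, which may not be that between single conceptuses. Libraries of day 14 (n = 4) entered the same fit, and so its estimate of spread, and are given where they show the earlier level.

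Between these days the conceptus of ruminants changes from a free filament of trophectoderm, which signals pregnancy to the ewe by secreting interferon tau, to a conceptus that attaches to the uterine lining. Mononucleate trophectoderm gives rise to binucleate cells, the endocrine cells of the ruminant placenta, which make pregnancy-associated glycoproteins, prolactin-related proteins and placental lactogen. Inside the trophectoderm, extraembryonic endoderm forms the yolk sac, which makes plasma proteins, mesoderm builds the vascular membranes and the allantois, and the embryo itself forms its heart, nervous system and somites. RNA of whole conceptuses mixes all of these. In such bulk samples fewer cells of a type and less RNA per cell cannot be told apart.

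Gene reads per library ranged from 11.03 M to 14.73 M on day 16 and from 10.44 M to 12.18 M on day 20. Mitochondrial features held 7.61 to 10.2% of the reads on day 16 and 4.96 to 5.85% on day 20, a difference with p = 0.0286 in a two-sided exact permutation test over the 8 libraries, the smallest p that 70 splits allow. Their part in the results below was not tested. Log2 CPM values of replicates correlated between 0.929 and 0.983 across features on day 16 and between 0.949 and 0.977 on day 20. Libraries stood apart in ways that touch several results. Replicate 4 of day 16 was the lowest of its day in 22 of the 23 matrix genes called below and in 14 of 20 vessel genes tested, and held 32.9 CPM of COL3A1, a collagen, against 781 CPM or more in the other 3. Replicate 1 of day 20 stood far above every other library in heart myosin and heart actin and was highest of its day in 14 of the 20 vessel genes, and replicate 3 of day 20 had the highest level of its day in 19 of the 23 matrix genes. Several of the results that rest on these libraries are also given without them.

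The labelled tissue was checked against marker genes. Trophectoderm markers were present on both days at unlike levels. The factor GATA3 ranged from 212 to 374 CPM on day 16 and from 157 to 268 CPM on day 20, and the keratin KRT8 from 2319.7 to 3967 and from 1127 to 2148 CPM. TFAP2C ranged from 78.0 to 120 and from 47.2 to 83.3 CPM. GATA2 ranged from 42.7 to 58.0 and from 8.54 to 20.9 CPM, and CDX2 from 13.7 to 18.2 and from 7.04 to 17.7 CPM. The leukocyte markers PTPRC and CD3E did not exceed 1.07 and 0.504 CPM in any of the 8 libraries. The neural markers PAX6, SOX2 and STMN2 reached 1.69, 1.40 and 1.91 CPM at most. The progesterone receptor PGR, a marker of uterine stroma, reached 0.378 CPM. Its level in uterine glands and lumen on these days was not examined, so it does not show how much RNA of these is present. Other transcripts that the uterus is known to make, some of which the conceptus makes as well, were present. Summed over 16 markers of uterine epithelium their level ranged from 199 to 436 CPM on day 16 and from 587 to 1149.5 CPM on day 20. Cystatin C alone, at 384 to 823 CPM, made up most of the day 20 sum.

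**Figure D1:**
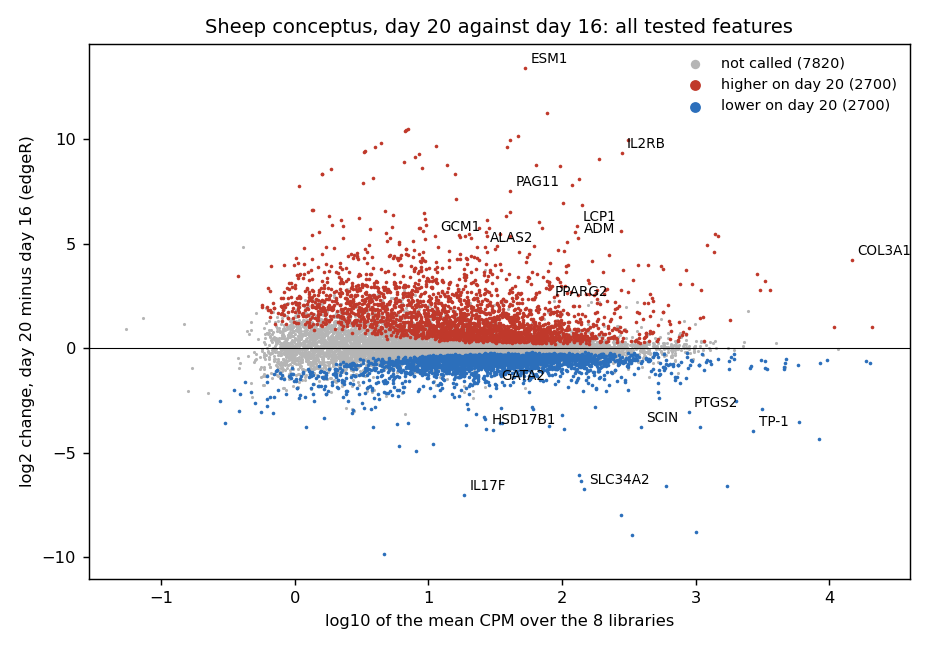
Each point is 1 of 13220 tested features, with the log10 of its mean CPM over the 8 libraries on the x axis and the log2 change of day 20 minus day 16 from edgeR on the y axis. Red points (2700) were called higher on day 20 and blue points (2700) lower at an adjusted p under 0.05, and the rises reach further from 0 than most of the falls.

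Of the 25197 features listed, 13220 had enough reads to be tested, and edgeR's quasi-likelihood test with Benjamini-Hochberg adjustment called 5400 of them at an adjusted p under 0.05, which is 40.8% of the tested features. The calls split evenly, with 2700 higher on day 20 (20.4%) and 2700 lower (20.4%). Rises were larger than falls. Of the calls with a log2 change of at least 1 in size, 1663 were rises and 565 were falls. The 4 and 4 libraries did not overlap in 36.7% of tested features. The step from day 14 to day 16, which shares the day 16 libraries, had calls in 54.4% of the same features. For day 20 against day 16 the authors' deposited table gives 1918 features an FDR p-value under 0.05, and 1866 of these were called here in the same direction and 0 in the opposite one. Below, levels are CPM, that is read counts scaled to library size after TMM normalisation, listed in the order of the replicate numbers (1, 2, 4 and 5 on day 16, then 1, 3, 4 and 5 on day 20). Each log2 change is day 20 minus day 16 with its standard error (SE), and each adjusted p comes from the edgeR test over all tested features.

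Interferon tau fell. TP-1, the file's name for interferon tau, the pregnancy recognition signal of ruminants, stood at 7932, 4515, 5101 and 2744 CPM on day 16 and at 39.7, 505, 662 and 95.3 CPM on day 20 (log2 change -3.96, SE 0.75, adjusted p = 0.00189, -4.57 without day 20 replicate 4). The groups did not overlap, and replicates 1 and 5 of day 20 were far below replicates 3 and 4. Interferon tau genes come in near-identical copies between which reads may be split, so the level of this copy is uncertain. On day 14 the same feature had ranged from 12158 to 15984 CPM, and its change between days 14 and 16 did not pass the test (log2 change -1.52, SE 0.68, adjusted p = 0.078).

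Several other genes fell by far larger factors than most. SLC34A2, a sodium-dependent phosphate carrier, stood at 434, 302, 274 and 134 CPM on day 16 and at 2.12, 3.30, 4.32 and 1.05 CPM on day 20 (log2 change -6.73, SE 0.49, adjusted p = 1.7e-05). SLC10A1, a sodium-dependent bile acid carrier, went from 405, 327, 253 and 64.3 CPM to 2.75, 3.13, 5.71 and 3.89 CPM (log2 change -6.08, SE 0.52, adjusted p = 2.8e-05). Neither gene overlapped between days, and both genes had already fallen from day 14, when SLC34A2 ranged from 3015 to 4936 CPM and SLC10A1 from 2798 to 3161 CPM (log2 change -3.79 and -3.50, adjusted p = 3.7e-05 and 9.8e-05 for days 14 to 16). The cytokine gene IL17F held 121, 8.73, 1.32 and 14.2 CPM on day 16 and 0.212, 0, 0.848 and 0 CPM on day 20 (log2 change -7.04, SE 1.56, adjusted p = 0.00445, -4.87 without day 16 replicate 1, -8.73 without day 20 replicate 4). Replicate 1 of day 16 held most of its reads, and the groups did not overlap. NETO2, an accessory protein of glutamate receptors, likewise had its highest level in replicate 1 of day 16, at 471, 165, 52.1 and 83.6 CPM against 7.69, 13.3, 17.3 and 15.5 CPM on day 20 (log2 change -3.84, SE 0.64, adjusted p = 0.000933, -2.92 without day 16 replicate 1). SCIN, an actin-severing protein, moved more evenly, from 847, 626, 727 and 711 CPM to 38.9, 51.2, 56.1 and 64.0 CPM (log2 change -3.79, SE 0.32, adjusted p = 2.8e-05). Its 4 libraries of each day lay close together.

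Carriers and enzymes made up most of the other largest falls. ABCC2, an export pump for conjugated compounds, fell from 65.7 ± 27.8 to 5.43 ± 2.58 CPM (mean ± SD, n = 4, log2 change -3.60, SE 0.38, adjusted p = 7.5e-05). SLC16A9, a member of the monocarboxylate carrier family, fell from 56.7 ± 11.05 to 3.86 ± 3.31 CPM (log2 change -3.90, SE 0.45, adjusted p = 0.000118, -4.65 without day 20 replicate 3). SLC35G1 and SLC7A4, members of other carrier families, fell from 149 ± 52.4 to 11.4 ± 5.36 CPM (log2 change -3.71, adjusted p = 0.00112) and from 35.5 ± 23.98 to 2.82 ± 1.40 CPM (log2 change -3.66, adjusted p = 0.00124). DNASE1L3, a secreted DNase, fell from 15.7 ± 9.17 to 0.513 ± 0.223 CPM (log2 change -4.90, SE 0.47, adjusted p = 4.9e-05). PRO, described in the table only as a protease, had 28.9, 6.26, 3.16 and 4.81 CPM on day 16 and 0.353, 1.30, 1.08 and 0.748 CPM on day 20 (log2 change -3.65, SE 0.73, adjusted p = 0.00258, -2.47 without day 16 replicate 1). In this paragraph only CRYGS, a lens crystallin, and CYP26B1, which breaks down retinoic acid, were called higher on day 16 than on day 14. They ranged from 0.468 to 0.848 and from 0.975 to 1.40 CPM on day 14, rose to ranges of 2.71 to 18.3 and 4.11 to 21.6 CPM on day 16 (adjusted p = 0.000102 and 0.00102 for days 14 to 16) and stood within 0.353 to 0.617 and 0.0771 to 1.74 CPM on day 20 (log2 change -4.69 and -3.56, adjusted p = 0.000116 and 0.00151). In each of the genes of this paragraph the libraries of the days did not overlap.

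**Figure D2:**
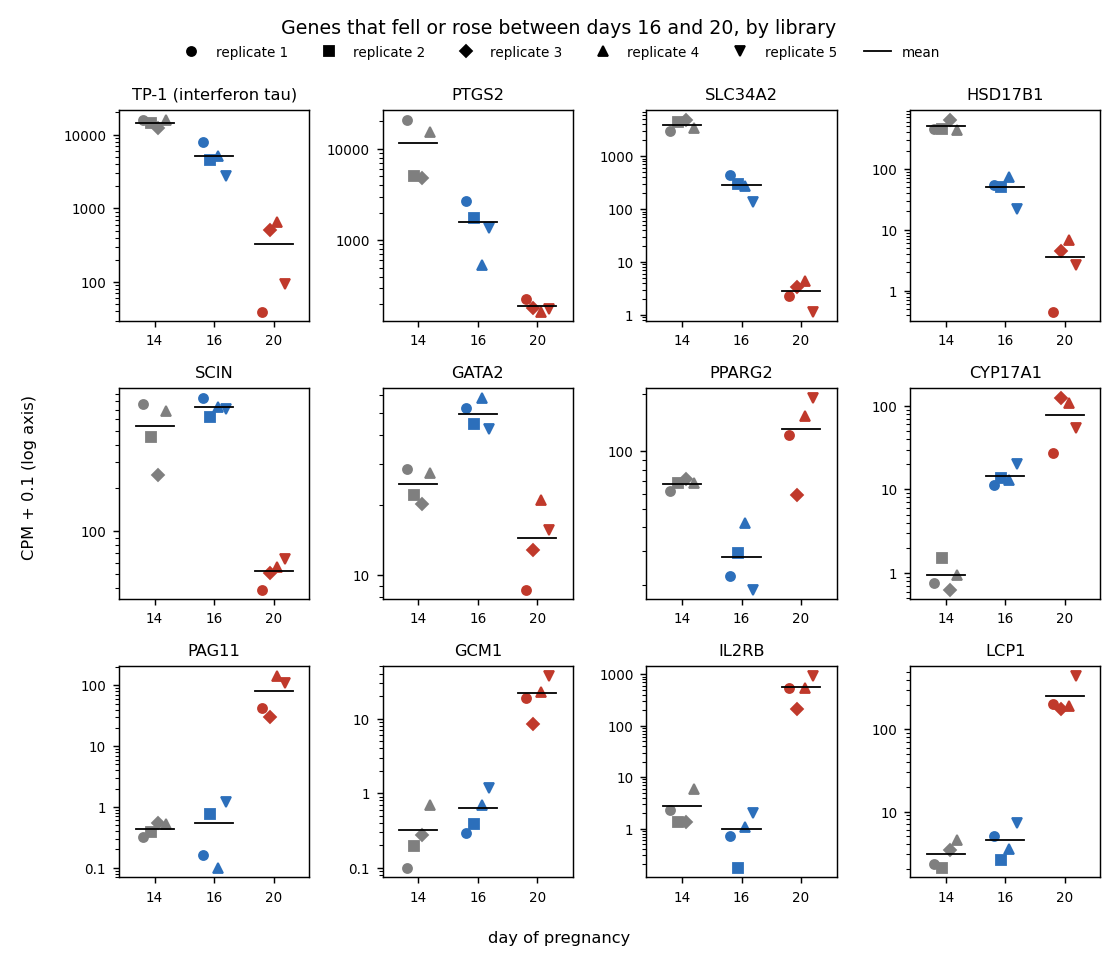
Each panel shows 1 gene, with the day of pregnancy on the x axis and CPM + 0.1 on a log y axis. Points are libraries (the shape gives the replicate number) and lines are means of 4 libraries. The panels from TP-1 to GATA2 end lower on day 20 than on day 16, the other 6 end higher, and PPARG2 is lowest on day 16.

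The trophectoderm list did not move one way. Of 24 tested members 3 rose and 6 fell (25.0% lower, against 20.4% of all tested features), with a median log2 change of -0.01 against 0.01 for all tested features. Without day 20 replicate 3 the rises numbered 5. GATA2, a trophectoderm transcription factor that activates interferon tau genes in ruminants, stood at 52.2, 44.8, 58.0 and 42.7 CPM on day 16 and at 8.54, 12.7, 20.9 and 15.5 CPM on day 20 (log2 change -1.78, SE 0.23, adjusted p = 0.000242). The groups did not overlap, and day 16 was the highest of the 3 days, since day 14 ranged from 20.1 to 28.5 CPM. PPARG2, the file's name for the lipid-sensing nuclear receptor PPAR gamma, went the other way, from 21.99, 29.3, 41.8 and 18.7 CPM to 121, 58.9, 153 and 191 CPM (log2 change 2.23, SE 0.33, adjusted p = 0.000468). All day 20 libraries lay above all of day 16, after a fall from a range of 61.7 to 71.4 CPM on day 14 (adjusted p = 0.00637). The homeobox gene DLX4 rose from 4.81 ± 1.68 to 13.9 ± 4.86 CPM (log2 change 1.53, SE 0.30, adjusted p = 0.00197). KRT8 fell (log2 change -0.93, SE 0.22, adjusted p = 0.00545). The trophectoderm regulators CDX2 and HAND1 were not called, with 16.3 ± 1.92 and 11.4 ± 5.01 CPM for CDX2 (adjusted p = 0.127) and 109 ± 15.7 and 128 ± 32.4 CPM for HAND1 (adjusted p = 0.742). Nor was GATA3 (adjusted p = 0.247), and TFAP2C, called in the full set (log2 change -0.61, SE 0.19, adjusted p = 0.0258, -0.56 without day 16 replicate 2 with adjusted p = 0.0662, -0.51 without day 16 replicate 4 with adjusted p = 0.0674, -0.48 without day 20 replicate 1 with adjusted p = 0.0629, -0.51 without day 20 replicate 3 with adjusted p = 0.0686), was lost in 4 of the 8 fits that left out 1 library.

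Most of the tested genes of binucleate trophoblast rose. Of 28 genes listed, 11 were found among the features, and 10 of these had enough reads to be tested. The listed genes that were not found have no level here. Of the 10 tested genes 6 rose and 0 fell (60.0% higher, against 20.4% of all tested features). The count was 6 whichever of the 8 libraries was left out. The 6 are PAG11, PAG6, PAG4, PRP2, PRL and GCM1. PAG11, a pregnancy-associated glycoprotein of the aspartic protease family, stood at 0.063, 0.655, 0 and 1.09 CPM on day 16 and at 42.3, 29.8, 143 and 110.3 CPM on day 20 (log2 change 7.52, SE 0.77, adjusted p = 6.7e-05, 8.38 without day 16 replicate 5). PAG6 of the same family had no read in any day 16 library and 8.33, 1.56, 7.48 and 14.2 CPM on day 20 (at least 152-fold higher, adjusted p = 0.00267, against a floor of 3 reads over the 4 libraries). Reads may be split between copies within this family, so single members are uncertain. PRP2, a prolactin-related protein, had 1 read over the day 16 libraries and 3.53, 1.48, 2.54 and 3.37 CPM on day 20 (156-fold with a counting interval of 27.6 to 6224, adjusted p = 9.9e-05, at least 40.2-fold without day 16 replicate 5). GCM1, a transcription factor of trophoblast differentiation in mouse and human, went from 0.189, 0.291, 0.587 and 1.09 CPM to 18.8, 8.26, 22.8 and 37.3 CPM (log2 change 5.34, SE 0.66, adjusted p = 0.00018). No pair of groups overlapped, and replicate 3 had the lowest day 20 level in each of these 4 genes. The summed level of the 11 genes of the list in the table ranged from 379 to 585 CPM on day 16 and from 589 to 1295 CPM on day 20. Other members made up nearly all of it on day 16, since PAG11, PAG6, PRP2 and GCM1 did not exceed 1.09 CPM in any library of that day. HAND1, which was not called, alone held 109 ± 15.7 CPM on day 16 and 128 ± 32.4 CPM on day 20 (mean ± SD).

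The largest rises of all named genes shared an order of the day 20 libraries. Replicate 3 was lowest in 13 of the 15 largest rises and replicate 5 highest in 11. ESM1, a secreted proteoglycan known from vessel tips, had no read in any day 16 library and 108, 37.7, 62.5 and 216 CPM on day 20 (at least 2037-fold higher, adjusted p = 0.000116, against the same floor, at least 1347-fold without day 20 replicate 5). IL2RB, a receptor subunit shared by interleukins of T and NK cells, stood at 0.63, 0.0728, 0.954 and 1.86 CPM on day 16 and at 541, 208, 548 and 928 CPM on day 20 (log2 change 9.31, SE 0.79, adjusted p = 2.8e-05, 9.94 without day 16 replicate 5). The T cell marker CD3E stayed within 0.0734 to 0.504 CPM on day 16 and 0.299 to 0.463 CPM on day 20. CPA4, a secreted carboxypeptidase, went from 0.126, 0.873, 0.807 and 2.17 CPM to 305, 118, 204 and 444 CPM (log2 change 8.11, SE 0.70, adjusted p = 2.8e-05, 8.81 without day 16 replicate 5). ADCYAP1, a neuropeptide, went from 0.126, 0.291, 0.367 and 0.388 CPM to 147, 32.3, 64.5 and 265 CPM (log2 change 8.75, SE 0.83, adjusted p = 4.9e-05, 8.10 without day 20 replicate 5). DKK4, a secreted Wnt antagonist, rose from a range of 0 to 0.233 CPM to 86.4, 23.9, 95.6 and 119 CPM (log2 change 9.96, SE 0.87, adjusted p = 3e-05, 11.26 without day 16 replicate 5). All of these groups were apart.

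Others of the 15 largest rises include a coagulation inhibitor, a proteoglycan and signalling genes. TFPI, the inhibitor of tissue factor, stood at 0.378, 1.16, 2.20 and 2.87 CPM on day 16 and at 155, 81.4, 242 and 325 CPM on day 20 (log2 change 6.95, SE 0.58, adjusted p = 2.8e-05). SRGN, the proteoglycan core of secretory granules, went from 3.34, 3.13, 0.514 and 2.56 CPM to 258, 85.6, 243 and 537 CPM (log2 change 6.87, SE 0.67, adjusted p = 5e-05). NRK, a kinase of the placenta in mice, went from 0.567, 0.437, 1.54 and 1.01 CPM to 82.7, 45.6, 58.5 and 136 CPM (log2 change 6.50, SE 0.51, adjusted p = 2e-05). Both genes had day 20 libraries ordered with replicate 3 lowest and replicate 5 highest. METTL7B, a methyltransferase-like gene, had 1 read over the day 16 libraries and 19.3, 8.61, 22.3 and 41.2 CPM on day 20 (1308-fold with a counting interval of 234 to 51711, adjusted p = 2.8e-05, at least 330.2-fold without day 16 replicate 4). NPPC_2, a feature described as C-type natriuretic peptide, had 1 read on day 16 and 15.3, 4.43, 11.3 and 21.5 CPM on day 20 (759-fold with a counting interval of 136 to 30012, adjusted p = 9e-05, at least 195-fold without day 16 replicate 5), and since the table describes another feature, NPPC_1, in the same words its reads may be split. TNFRSF9, a costimulatory receptor, had 2 reads on day 16 and 20.8, 5.22, 8.94 and 37.03 CPM on day 20 (521-fold with a counting interval of 144 to 4306, adjusted p = 0.000113, 787-fold without day 16 replicate 2, 802-fold without day 16 replicate 5, 341-fold without day 20 replicate 5). ITGA4, an integrin subunit, differed in its order, since replicate 3 was highest, at 43.9, 272, 108 and 106 CPM on day 20 against 1.64, 1.75, 0.22 and 4.50 CPM on day 16 (log2 change 6.04, SE 0.75, adjusted p = 0.00018, 6.75 without day 16 replicate 5, 5.41 without day 20 replicate 3). SERPINA6, which carries corticosteroids in plasma, rose from a range of 0 to 0.853 CPM to 31.1, 5.56, 8.25 and 30.4 CPM (log2 change 5.90, SE 0.87, adjusted p = 0.000458, 6.99 without day 16 replicate 5). None of these 8 genes had overlapping groups.

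Steroid and prostaglandin genes were split. Of 12 tested genes of steroid synthesis 2 rose and 4 fell (16.7% higher and 33.3% lower, against 20.4% of all tested features in each direction). The falls were HSD17B1, FDX1, FDXR and POR and the rises CYP17A1 and HSD17B2. HSD17B1, which makes oestradiol from oestrone, stood at 55.1, 50.4, 74.1 and 22.03 CPM on day 16 and at 0.353, 4.35, 6.63 and 2.54 CPM on day 20 (log2 change -3.87, SE 0.58, adjusted p = 0.000501). CYP17A1, which makes androgens from progestagens, rose from 11.3, 13.5, 12.7 and 19.9 CPM to 27.2, 125, 107 and 54.2 CPM (log2 change 2.45, SE 0.41, adjusted p = 0.000979). The electron donors FDXR and POR of steroid P450 enzymes fell from 15.1 ± 1.21 to 7.62 ± 1.90 CPM (log2 change -0.99, adjusted p = 0.000882) and from 57.9 ± 9.66 to 32.9 ± 7.78 CPM (log2 change -0.82, adjusted p = 0.00379), in each of the 4 genes without overlap. CYP11A1 and 3BHSD, the enzymes that make pregnenolone and then progesterone, were not called (adjusted p = 0.226 and 0.456), at 2.21 ± 1.44 and 1.03 ± 0.67 CPM for CYP11A1 and 14.2 ± 9.23 and 18.6 ± 4.69 CPM for 3BHSD. The count of rises was 1 without day 16 replicates 1, 2 or 5 or day 20 replicates 1 or 3, while the same 4 falls were called in each fit without 1 library.

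PTGS2, the cyclooxygenase that makes prostaglandins in the elongating conceptus, stood at 2652, 1748, 535 and 1376 CPM on day 16 and at 229, 183, 166 and 177 CPM on day 20 (log2 change -3.06, SE 0.56, adjusted p = 0.00145). The day 20 libraries lay close together and below all of day 16, and day 14 had ranged from 4807 to 20815 CPM. PTGIS, the prostacyclin synthase, fell from 119.9 ± 26.5 to 49.4 ± 19.5 CPM (log2 change -1.28, SE 0.25, adjusted p = 0.00242). SLCO2A1, a prostaglandin carrier, rose from 44.99, 54.6, 41.8 and 40.3 CPM to 183, 391, 287 and 229 CPM (log2 change 2.58, SE 0.30, adjusted p = 0.000125). PTGFR, the receptor for prostaglandin F2 alpha, went from 0.126, 0.509, 0.734 and 0.543 CPM to 4.16, 3.13, 8.71 and 6.43 CPM (log2 change 3.54, SE 0.51, adjusted p = 0.000374). In all 3 the groups were apart. Of the 10 tested genes of this list 4 rose and 3 fell (40% higher and 30.0% lower, against 20.4% of all tested features in each direction), and the rises numbered 2 without day 16 replicate 2 or without day 20 replicate 1.

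**Figure D3:**
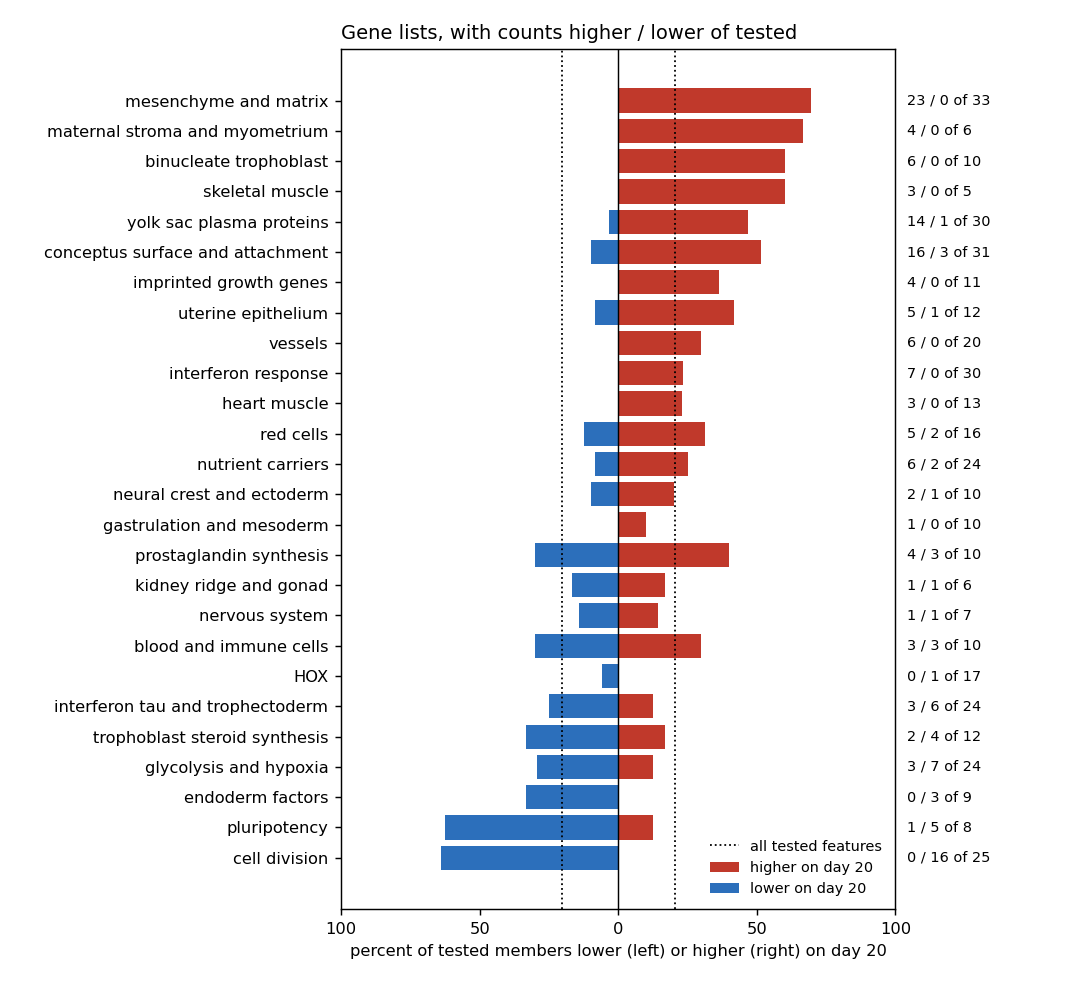
For each of 26 gene lists, bars show the percent of tested members called higher (red, right) or lower (blue, left) on day 20, with the counts beside them. The dotted lines mark the 20.4% of all tested features called in each direction. With all 8 libraries, matrix genes extend furthest to the right and genes of cell division furthest to the left.

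Plasma protein genes of the yolk sac rose in part. Of 30 tested members 14 rose and 1 fell (46.7% higher, against 20.4% of all tested features), with a median log2 change of 1.47. Without 1 library the rises numbered 10 to 16, and the 1 fall, of the uptake receptor LRP2, was not called without day 16 replicate 1 or 2. APOH, a phospholipid-binding plasma protein, stood at 1.20, 0.8, 0.147 and 3.03 CPM on day 16 and at 74.5, 13.04, 35.6 and 91.3 CPM on day 20 (log2 change 5.38, SE 0.76, adjusted p = 0.000362, 6.17 without day 16 replicate 5). ITIH2, part of a hyaluronan-binding inhibitor, rose from a range of 0.126 to 0.388 CPM to one of 0.956 to 11.6 CPM (log2 change 4.26, SE 0.81, adjusted p = 0.00191, 3.65 without day 20 replicate 1). APOM, a lipocalin of lipoproteins, went from a range of 4.92 to 19.2 CPM to one of 21.5 to 63.0 CPM (log2 change 2.06, SE 0.39, adjusted p = 0.00198). Prothrombin, F2, went from a range of 2.94 to 8.69 CPM to one of 8.52 to 25.3 CPM (log2 change 1.65, SE 0.36, adjusted p = 0.00421). APOH, ITIH2 and APOM did not overlap between days, and F2 did by a narrow margin.

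AFP, alpha-fetoprotein, a main product of the yolk sac, was not called. It stood at 848, 1037, 6.97 and 2574 CPM on day 16 and at 4983, 1472, 3472 and 5218 CPM on day 20 (log2 change 1.76, SE 1.01, adjusted p = 0.182). Replicate 4 of day 16 was far below the other 3, and without it the log2 change was 1.34 with adjusted p = 0.0769, while without replicate 5 of day 16 it was 2.58 with adjusted p = 0.0842. TTR, the thyroxine carrier transthyretin, had the same order of libraries on day 16, at 4.16, 8.08, 0.147 and 37.1 CPM, and rose to 225, 39.04, 69.1 and 195 CPM on day 20 (log2 change 3.42, SE 1.01, adjusted p = 0.0182, 3.11 without day 16 replicate 1 with adjusted p = 0.0516, 3.26 without day 16 replicate 2 with adjusted p = 0.0544, 4.99 without day 16 replicate 5). The apolipoprotein genes APOA1 and APOB were not called (adjusted p = 0.202 and 0.462), with 333 to 1004 CPM of APOA1 on day 16 and 580.2 to 1597 CPM on day 20, and 0.954 to 495 CPM of APOB on day 16 and 212 to 527 CPM on day 20. Of 9 tested transcription factors of endoderm 0 rose and 3 fell (33.3% lower, against 20.4% of all tested features). In 5 of the 8 fits without 1 library at most 1 factor fell (0 without day 16 replicates 1 or 2 or day 20 replicates 3 or 5, and 1 without day 16 replicate 5).

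Most of the tested matrix genes rose. Of 33 tested genes of mesenchyme and matrix 23 rose and 0 fell (69.7% higher, against 20.4% of all tested features), with a median log2 change of 3.08 and 17 to 27 rises without 1 library. Without both day 16 replicate 4 and day 20 replicate 1 the count was 23 and the median 2.18. COL3A1, the fibrillar type III collagen, stood at 781, 1095, 32.9 and 4206 CPM on day 16 and at 19012, 54072, 23030.0 and 15836 CPM on day 20 (log2 change 4.19, SE 1.06, adjusted p = 0.0087, 5.45 without day 16 replicate 5). It took 1.74 to 5.96% of all gene reads on day 20 and at most 0.492% on day 16. COL1A1, of type I collagen, went from 387, 563, 7.41 and 1601 CPM to 5540.5, 11026, 4437 and 2606 CPM (log2 change 3.21, SE 1.04, adjusted p = 0.0289, 3.01 without day 16 replicate 1 with adjusted p = 0.0737, 3.14 without day 16 replicate 2 with adjusted p = 0.0713, 4.20 without day 16 replicate 5, 2.71 without day 20 replicate 3 with adjusted p = 0.0695). Neither collagen overlapped between days. Without day 16 replicate 4 the log2 changes of COL3A1 and COL1A1 were 3.78 with adjusted p = 0.0032 and 2.79 with adjusted p = 0.00799.

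ELN, elastin, stood at 0.063, 0, 0.0734 and 0.698 CPM on day 16 and at 14.9, 29.9, 12.4 and 15.8 CPM on day 20 (log2 change 6.45, SE 0.72, adjusted p = 9.9e-05, 8.34 without day 16 replicate 5). LOX, which crosslinks collagen and elastin, stood at 6.30, 5.68, 0.734 and 14.8 CPM and 166, 341, 117 and 89.8 CPM (log2 change 4.70, SE 0.70, adjusted p = 0.000464, 5.38 without day 16 replicate 5). The proteoglycan BGN rose from a range of 0.294 to 11.6 CPM to one of 65.4 to 164 CPM (log2 change 4.48, SE 0.66, adjusted p = 0.000454, 5.35 without day 16 replicate 5). THY1, a surface glycoprotein of fibroblasts, went from a range of 0.0734 to 0.873 CPM to one of 9.13 to 18.9 CPM (log2 change 4.75, SE 0.54, adjusted p = 0.000109). The groups were apart in all 4. The summed level of the 33 genes ranged from 3861 to 16568 CPM on day 16, lowest in replicate 4 and highest in replicate 5, and from 31638 to 110460.0 CPM on day 20, highest in replicate 3. Of the 11 imprinted growth genes tested 4 rose and 0 fell (36.4% higher, against 20.4% of all tested features). These were IGF2, the fetal growth factor, from a range of 5.80 to 124 CPM to one of 126 to 423 CPM (log2 change 2.53, SE 0.69, adjusted p = 0.0128, 3.45 without day 16 replicate 5), its clearance receptor IGF2R from a range of 25.98 to 197 CPM to one of 250.1 to 761 CPM (log2 change 2.00, SE 0.52, adjusted p = 0.0106), the sarcoglycan SGCE from a range of 0.367 to 20.2 CPM to one of 32.999 to 94.1 CPM (log2 change 2.76, SE 0.73, adjusted p = 0.0109, 3.69 without day 16 replicate 5), and the zinc finger gene PEG3 (listed as ENSOARG00000003426) from a range of 20.04 to 81.4 CPM to one of 284 to 428 CPM (log2 change 2.57, SE 0.35, adjusted p = 0.000311). IGF2, IGF2R, SGCE and PEG3 did not overlap between days.

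**Figure D4:**
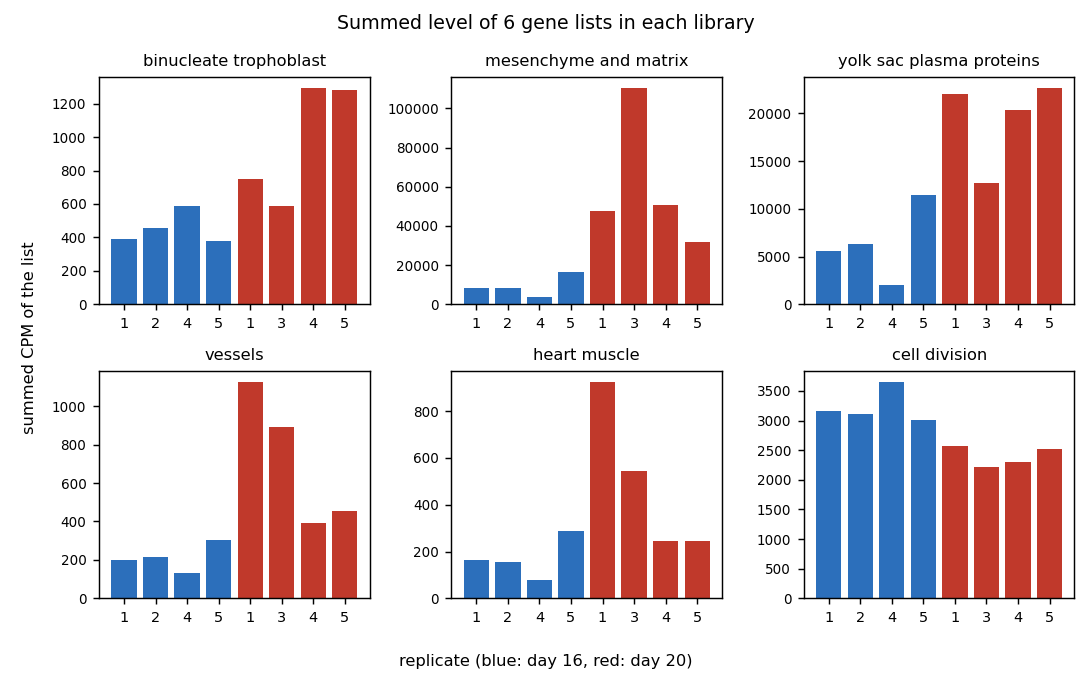
Bars give the summed CPM of 6 gene lists in each library, with the replicate number on the x axis, blue for day 16 and red for day 20, and a y axis of its own in each panel. Matrix genes are lowest in replicate 4 of day 16 and highest in replicate 3 of day 20, and heart genes are highest in replicate 1 of day 20.

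Of 20 tested vessel genes 6 rose, KDR, FLT1, TEK, PLVAP, ANG-1 and ANG-2, and 0 fell (30.0% higher, against 20.4% of all tested features), with a median of 1.18. Without 1 library the rises numbered 4 to 8, and without day 20 replicate 1 they numbered 4 with a median of 0.50. KDR, a receptor for vascular endothelial growth factor, stood at 33.97, 43.5, 2.20 and 106 CPM on day 16 and at 373, 588, 162 and 155 CPM on day 20 (log2 change 2.78, SE 0.79, adjusted p = 0.016, 3.58 without day 16 replicate 5), without overlap. FLT1, another such receptor that trophoblast also makes, rose from 27.1 ± 8.04 to 60.6 ± 20.6 CPM (log2 change 1.16, SE 0.30, adjusted p = 0.0105). The angiopoietins ANG-1 and ANG-2 rose from 26.1 ± 6.96 to 58.9 ± 20.9 CPM (log2 change 1.17, adjusted p = 0.0127) and from 1.004 ± 0.401 to 3.47 ± 2.38 CPM (log2 change 1.78, adjusted p = 0.013). CDH5, the cadherin of endothelial cells, stood at 3.72, 3.64, 0.0734 and 9.39 CPM on day 16 and at 112, 1.04, 1.77 and 4.19 CPM on day 20, and was not called (log2 change 2.83, SE 1.41, adjusted p = 0.126). PECAM1 (listed as ENSOARG00000014779) showed the same pattern, at 10.9, 9.90, 3.23 and 18.6 and at 107, 3.56, 9.64 and 2.84 CPM (log2 change 1.53, SE 1.01, adjusted p = 0.242). Replicate 1 of day 20 held both at far above any other library, and the other 3 day 20 libraries lay within or below the range of day 16 for CDH5 and PECAM1. Without that library the log2 changes of CDH5 and PECAM1 were -0.84 with adjusted p = 0.577 and -0.99 with adjusted p = 0.229, and that of KDR was 2.70 with adjusted p = 0.0305. Without day 16 replicate 4 the log2 change of KDR was 2.38 with adjusted p = 0.00644.

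Of 16 tested red cell genes 5 rose and 2 fell (31.2% higher, against 20.4% of all tested features), and 4 fell without day 20 replicate 4. The haemoglobin features HBM, HBQ1 and HBBB were too low to be tested. Of 43 red cell genes listed, 28 were found among the features, and the globins HBZ, HBE1 and HBA were not found under those names. The total level of haemoglobin RNA is therefore not known here. ALAS2, the haem synthesis enzyme of red cell precursors, stood at 1.07, 1.31, 1.54 and 3.34 CPM on day 16 and at 34.4, 34.3, 58.7 and 76.6 CPM on day 20 (log2 change 4.82, SE 0.43, adjusted p = 3.5e-05). TFRC, the transferrin receptor, went from 9.89, 9.82, 5.28 and 13.2 CPM to 127, 48.2, 78.8 and 148 CPM (log2 change 3.40, SE 0.40, adjusted p = 0.000125). The membrane genes GYPC and SPTB rose from a range of 0 to 0.621 CPM to one of 1.80 to 5.13 CPM (log2 change 3.35, adjusted p = 0.00413) and from a range of 0.882 to 2.09 CPM to one of 3.39 to 14.9 CPM (log2 change 2.29, SE 0.51, adjusted p = 0.00421, 1.66 without day 20 replicate 1), and EPOR, the erythropoietin receptor, was the fifth. None of ALAS2, TFRC, GYPC and SPTB overlapped between days. The red cell factor GATA1 was at 2.02, 1.53, 1.76 and 1.09 CPM and 2.61, 1.13, 1.08 and 1.80 CPM, and was not called (log2 change 0.05, SE 0.38, adjusted p = 0.924). Those that fell were SLC25A37 and FECH, which import iron into mitochondria and insert it into haem. The summed level of the 28 red cell genes in the table overlapped between days, at 322 to 745 and 379 to 562 CPM.

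Among 10 tested genes of blood and immune cells 3 rose and 3 fell (30.0% each way, against 20.4% of all tested features in each direction). LCP1, an actin-bundling protein of leukocytes that is also made by some epithelia, stood at 4.92, 2.47, 3.38 and 7.06 CPM on day 16 and at 201, 179, 193 and 449 CPM on day 20 (log2 change 5.84, SE 0.44, adjusted p = 1.7e-05). CSF1R, the receptor of macrophage growth factor that human trophoblast also makes, went from 0.378, 0.218, 0.0734 and 0.233 CPM to 6.14, 2.96, 4.24 and 9.13 CPM (log2 change 4.56, SE 0.62, adjusted p = 0.000272). CD14 rose from a range of 0.441 to 1.31 CPM to one of 1.74 to 4.86 CPM (log2 change 1.88, SE 0.47, adjusted p = 0.00789). In all 3 of these genes the groups were apart. The summed level of the 21 listed genes in the table ranged from 62.8 to 67.3 CPM on day 16 and from 228 to 515 CPM on day 20, and LCP1 alone made up most of it on day 20. The leukocyte antigen PTPRC stood at 1.07, 0.291, 0.22 and 0.233 CPM on day 16 and at 0.847, 0.435, 0.694 and 0.524 CPM on day 20.

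Heart myosin and heart actin were high in 1 of the 4 day 20 libraries. OMYHCS, the file's name for the atrial myosin MYH6, stood at 0.945, 0.728, 0.22 and 1.63 CPM on day 16 and at 185, 0.348, 1.002 and 0.973 CPM on day 20 (log2 change 5.73, SE 1.79, adjusted p = 0.0243, 5.75 without day 16 replicate 1 with adjusted p = 0.0593, 5.64 without day 16 replicate 2 with adjusted p = 0.0633, 5.40 without day 16 replicate 4 with adjusted p = 0.0553, -0.17 without day 20 replicate 1 with adjusted p = 0.868). ACTB_5, described as cardiac actin ACTC1, stood at 7.499, 3.06, 2.27 and 2.09 CPM and 196, 0.956, 1.16 and 0.299 CPM and was not called (log2 change 3.72, SE 1.60, adjusted p = 0.0817). Replicate 1 of day 20 held nearly all reads of both on that day. Without it the log2 change of OMYHCS was -0.17 with adjusted p = 0.868 and that of ACTB_5 was -2.22 with adjusted p = 0.0287, so that ACTB_5 fell among the other libraries. TNNT2, heart troponin T, was at 0 in the other 7 libraries and at 1.41 CPM in replicate 1 of day 20, and NKX2-5, a heart factor, at 0.565, 0, 0 and 0 CPM on day 20 and at most 0.0776 CPM on day 16. MYL4, an embryonic myosin light chain, rose, from 4.66, 6.48, 0.44 and 13.7 CPM to 61.9, 150.2, 32.8 and 52.2 CPM (log2 change 3.56, SE 0.70, adjusted p = 0.00232, 4.25 without day 16 replicate 5, 2.95 without day 20 replicate 3), without overlap. Of 13 tested heart genes 3 rose, OMYHCS, MYL4 and TPM1, and 0 fell (23.1% higher, near the 20.4% of all tested features). Without day 20 replicate 1 the counts were 1 and 3. The rises also numbered 1 without day 16 replicates 1, 2 or 4 and 5 without day 20 replicate 5.

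The same library stood alone for other genes of the embryo. TBX4, a factor of the allantois and hindlimb, was at 5.86, 0.435, 0 and 0 CPM on day 20 and at most 0.233 CPM on day 16. PAX6, an eye and brain factor, was at 1.69, 0, 0.0771 and 0 CPM on day 20. Lists of the embryo otherwise held few tested genes and few calls. Of 17 tested HOX genes 0 rose and 1 fell (5.88% lower), of 10 genes of gastrulation and mesoderm 1 rose and 0 fell (10.0% higher), and of 7 genes of the nervous system 1 rose and 1 fell (14.3% each way). With all libraries, all of these shares lie below the 20.4% of all tested features called in each direction. Without day 20 replicate 1 these counts were 0 and 3, 0 and 0, and 0 and 3, and the 3 falls of 7 nervous system genes then lie above that share. Without day 16 replicate 5, 1 HOX gene rose and 2 fell and 2 mesoderm genes rose, and without day 20 replicate 4, 2 HOX genes fell. The mesoderm rise was also not called without day 16 replicates 1, 2 or 4 or day 20 replicates 3 or 4, nor the nervous system rise without day 16 replicates 1 or 2 or day 20 replicate 3. Of 5 tested skeletal muscle genes 3 rose (60.0%, against 20.4% of all tested features), and 1 did so without day 20 replicate 1. That one was KLHL41, a sarcomere gene, at 0.567, 0.291, 0.367 and 1.09 CPM on day 16 and at 8.33, 9.74, 4.70 and 4.64 CPM on day 20 (log2 change 3.55, SE 0.44, adjusted p = 0.000162). Of 6 genes of kidney ridge and gonad 1 rose and 1 fell (16.7% each way, below the 20.4% of all tested features), and both were lost without day 16 replicate 1 or 2. The rise was also lost without day 20 replicate 1 or 5 and the fall without day 16 replicate 5 or day 20 replicate 3, while 2 fell without day 20 replicate 1. Of 10 neural crest and ectoderm genes 2 rose and 1 fell (20.0% higher and 10.0% lower, against 20.4% of all tested features in each direction), and 2 fell without day 20 replicate 1. MITF, a factor of pigment cells, rose from 4.03, 3.35, 2.49 and 3.57 CPM to 15.3, 22.95, 21.3 and 38.8 CPM (log2 change 2.87, SE 0.28, adjusted p = 4.6e-05). KLHL41 and MITF did not overlap between days.

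**Figure D5:**
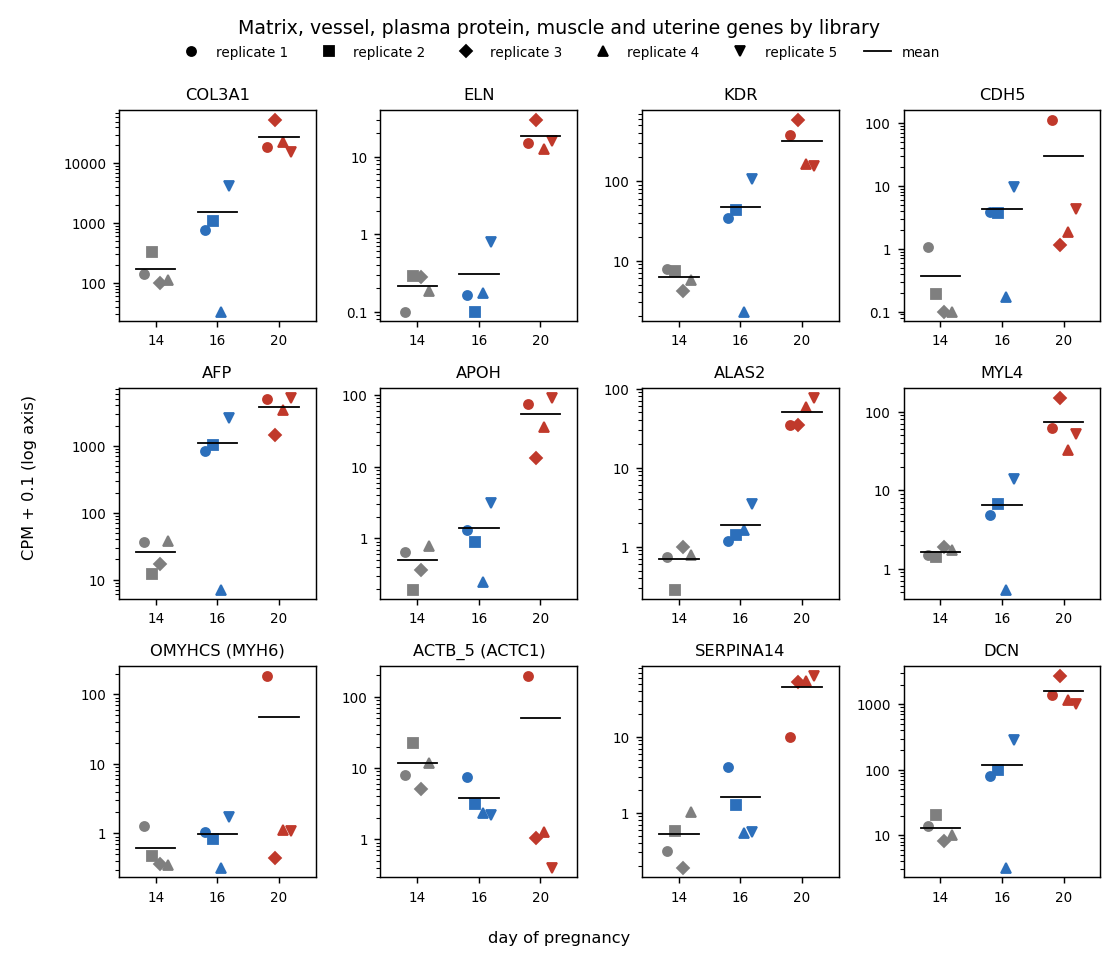
Each panel shows 1 gene, with the day of pregnancy on the x axis and CPM + 0.1 on a log y axis, points for libraries by replicate number and lines for means of 4 libraries. Replicate 4 of day 16 lies lowest of its day for COL3A1, KDR, CDH5, AFP, APOH and DCN, and replicate 1 of day 20 lies alone for CDH5, OMYHCS and ACTB_5.

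Genes listed for pluripotency fell in part. Of 8 tested 5 fell and 1 rose (62.5% lower, against 20.4% of all tested features), and without day 16 replicates 1 or 2 or day 20 replicate 5 the falls numbered 3. The 1 rise, of KLF4, was not called without day 16 replicates 1, 2 or 4 or day 20 replicate 1. DNMT3B, which lays down DNA methylation, stood at 224, 206, 235 and 185 CPM on day 16 and at 109.9, 113, 119 and 125 CPM on day 20 (log2 change -0.86, SE 0.09, adjusted p = 8.9e-05). SALL4, a factor of embryonic stem cells, went from 19.3, 21.8, 23.3 and 28.3 CPM to 11.1, 7.13, 5.78 and 5.61 CPM (log2 change -1.64, SE 0.23, adjusted p = 0.000301). ZFP42, which trophoblast also expresses, went from 42.9, 47.9, 47.6 and 39.6 CPM to 23.1, 23.04, 13.3 and 24.1 CPM (log2 change -1.09, SE 0.21, adjusted p = 0.00195). None of the 3 overlapped between days. POU5F1, the core factor of the epiblast, was at 6.93, 4.88, 0.22 and 3.88 CPM and 0.565, 2.09, 0.231 and 0.599 CPM (log2 change -2.21, SE 0.82, adjusted p = 0.0497, -1.81 without day 16 replicate 1 with adjusted p = 0.128, -2.10 without day 16 replicate 2 with adjusted p = 0.0955, -2.23 without day 16 replicate 5 with adjusted p = 0.067, -2.05 without day 20 replicate 1 with adjusted p = 0.107, -3.07 without day 20 replicate 3, -1.90 without day 20 replicate 4 with adjusted p = 0.108, -2.07 without day 20 replicate 5 with adjusted p = 0.105). It overlapped between days, since replicate 4 of day 16 was as low as the day 20 libraries. DNMT3B, SALL4 and ZFP42 were not low in that library, at 235, 23.3 and 47.6 CPM. Which cells their falls stem from was not tested. Without that library the log2 change of POU5F1 was -2.61 with adjusted p = 0.00626. NANOG, a factor of the same cells, did not exceed 0.0706 CPM in any of the 8 libraries, against 0.443 to 0.762 CPM on day 14. T, the primitive streak factor brachyury, stood at 2.21, 1.31, 0 and 2.25 CPM on day 16 and at 0.282, 0, 0 and 0 CPM on day 20, and was too low to be tested.

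Most tested cell division genes fell, by small factors. Of 25 tested 16 fell and 0 rose (64.0% lower, against 20.4% of all tested features), with a median of -0.44, and without 1 library the falls numbered 14 to 17. CDC6, which loads the replicative helicase, stood at 94.7, 86.2, 90.5 and 65.9 CPM on day 16 and at 26.3, 29.04, 32.9 and 28.6 CPM on day 20 (log2 change -1.53, SE 0.12, adjusted p = 2.2e-05). The mitosis genes CDC20, PLK1 and AURKB fell from 173 ± 11.9 to 86.6 ± 10.2 CPM (adjusted p = 8.4e-05), from 144 ± 13.9 to 78.5 ± 6.68 CPM (log2 change -0.87, SE 0.10, adjusted p = 0.000105) and from 59.5 ± 4.37 to 31.9 ± 3.86 CPM (log2 change -0.90, SE 0.11, adjusted p = 0.000131). The groups were apart in all 4. MKI67, the proliferation antigen, was at 249 ± 17.2 and 206 ± 23.4 CPM and was not called (adjusted p = 0.0954).

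Of 24 tested genes of glycolysis and hypoxia 3 rose and 7 fell (12.5% higher and 29.2% lower, against 20.4% of all tested features in each direction), with a median of -0.06. The falls were the glycolytic enzymes GPI, ALDOA, TPI1, GAPDH, PGK1 and PKM, and PDK1. ADM, the vasoactive peptide adrenomedullin, stood at 5.10, 8.37, 1.76 and 11.6 CPM on day 16 and at 282, 95.0, 241 and 410.3 CPM on day 20 (log2 change 5.26, SE 0.59, adjusted p = 0.000105). The aldolase ALDOC and the oxygen sensor EGLN3 also rose, from 2.51 ± 0.809 to 14.96 ± 5.41 CPM (log2 change 2.57, adjusted p = 0.0002) and from 11.9 ± 3.42 to 28.01 ± 5.12 CPM (log2 change 1.23, adjusted p = 0.00713). PDK1, which limits pyruvate oxidation, fell from 59.4, 70.7, 89.6 and 38.6 CPM to 24.5, 19.3, 24.2 and 15.7 CPM (log2 change -1.62, SE 0.26, adjusted p = 0.000799). ADM, ALDOC, EGLN3 and PDK1 did not overlap between days. Of 24 nutrient carriers and binding proteins 6 rose and 2 fell (25.0% higher and 8.33% lower, against 20.4% of all tested features in each direction). SLC40A1, the iron exporter ferroportin, rose from 17.8, 17.3, 17.4 and 35.8 CPM to 77.4, 64.0, 52.0 and 86.0 CPM (log2 change 1.66, SE 0.26, adjusted p = 0.000561). SLC7A2, an arginine carrier, went from a range of 0.0734 to 1.86 CPM to one of 7.69 to 13.4 CPM (log2 change 3.07, SE 0.62, adjusted p = 0.00267). Those that fell were the lactate carrier SLC16A1, from 298 ± 27.2 to 136 ± 32.6 CPM (log2 change -1.14, SE 0.20, adjusted p = 0.00113), and the fatty acid binding protein H-FABP, from 93.2 ± 23.9 to 36.5 ± 16.2 CPM (log2 change -1.35, SE 0.30, adjusted p = 0.00411). The glucose carrier SLC2A1 was not called, at 142 ± 43.03 and 187 ± 18.9 CPM (adjusted p = 0.111).

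Genes of the conceptus surface and of attachment rose in part. Of 31 tested 16 rose and 3 fell (51.6% higher, against 20.4% of all tested features), with a median of 1.39 and 14 to 17 rises without 1 library, while the falls numbered 1 without day 20 replicate 3. ITGA2, a collagen-binding integrin subunit, stood at 5.10, 7.57, 2.27 and 8.30 CPM on day 16 and at 105, 51.7, 114 and 137 CPM on day 20 (log2 change 4.14, SE 0.40, adjusted p = 4.9e-05). The metalloprotease inhibitors TIMP3 and TIMP2 went from 18.7, 25.1, 24.4 and 49.9 CPM to 437, 297, 320.0 and 441 CPM (log2 change 3.66, SE 0.35, adjusted p = 4.9e-05) and from 11.3, 9.61, 2.42 and 9.23 CPM to 98.5, 64.2, 75.2 and 104.4 CPM (log2 change 3.39, SE 0.38, adjusted p = 0.000102). MUC1, an anti-adhesive mucin that uterine epithelium also makes, went from 3.97, 4.15, 1.61 and 5.43 CPM to 73.3, 27.8, 48.8 and 85.7 CPM (log2 change 3.96, SE 0.44, adjusted p = 9.9e-05). All 4 were apart between days.

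Of 30 tested interferon response genes 7 rose and 0 fell (23.3% higher, near the 20.4% of all tested features), with a median of 0.41, and 4 rose without day 16 replicate 2, 4 or 5. The other 23 were not called, among them ISG17, MX1, MX2, IFIT1, IFIT2, IFIT3 and RSAD2 (adjusted p from 0.458 to 0.766). IFNAR1E, described as a subunit of the type I interferon receptor, stood at 17.3, 15.6, 16.9 and 17.6 CPM on day 16 and at 60.9, 61.2, 39.1 and 33.1 CPM on day 20 (log2 change 1.53, SE 0.19, adjusted p = 0.000193). IFIT5, which binds foreign RNA, rose from 20.98, 19.9, 22.01 and 26.8 CPM to 38.5, 62.8, 39.9 and 45.1 CPM (log2 change 1.05, SE 0.18, adjusted p = 0.000862). The RNA sensor DDX58 rose from 17.2, 7.495, 3.45 and 19.01 CPM to 35.6, 129, 39.1 and 39.7 CPM (log2 change 2.36, SE 0.56, adjusted p = 0.00653, 1.69 without day 20 replicate 3). Replicate 3 of day 20 was the highest library for DDX58, and none of these 3 genes overlapped between days.

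Some transcripts that the uterus is known to make were also higher on day 20. Of 12 tested markers of uterine epithelium 5 rose and 1 fell (41.7% higher, against 20.4% of all tested features), although the median log2 change was -0.26, and 5 rose whichever library was left out, while 3 fell without day 16 replicate 4. SERPINA14, the serpin of uterine milk, stood at 3.91, 1.16, 0.44 and 0.465 CPM on day 16 and at 9.81, 52.0, 53.8 and 63.5 CPM on day 20 (log2 change 4.86, SE 0.77, adjusted p = 0.000667, 5.97 without day 16 replicate 1). S100G, a calcium-binding protein of glands and placenta, went from 4.41, 3.78, 2.94 and 6.05 CPM to 36.7, 25.4, 35.7 and 94.6 CPM (log2 change 3.48, SE 0.57, adjusted p = 0.000808). The gastrin-releasing peptide GRP had 2 reads over the day 16 libraries and 0.847, 4.87, 3.78 and 4.86 CPM (98.2-fold with a counting interval of 26.8 to 817, adjusted p = 0.00022, 148-fold without day 16 replicate 2). Cystatin C (listed as ENSOARG00000006202) rose from 107, 231, 158 and 186 CPM to 421, 384, 603 and 823 CPM (log2 change 1.71, SE 0.26, adjusted p = 0.000608), and MUC1 was the fifth. All were apart between days. LGALS15, a galectin of uterine epithelium and trophectoderm, was not called, at 103.97, 122, 13.7 and 25.4 and 21.5, 47.1, 45.6 and 35.9 CPM (log2 change -0.82, SE 0.55, adjusted p = 0.253). WNT7A, of the luminal epithelium, fell from a range of 4.03 to 8.59 CPM to one of 2.33 to 5.09 CPM (log2 change -1.06, SE 0.29, adjusted p = 0.0122). PGR, which also stands in the list of uterine stroma and muscle, ranged from 0 to 0.378 CPM on day 16 and from 0 to 0.154 CPM on day 20. The summed level of the 16 markers in the table ranged from 199 to 436 CPM on day 16 and from 587 to 1149.5 CPM on day 20. Cystatin C alone made up most of it on day 20. The part of uterine RNA in the other results was not tested.

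Of 6 tested markers of uterine stroma and muscle 4 rose and 0 fell (66.7% higher, against 20.4% of all tested features), and 2 rose without day 20 replicate 1. DCN, the proteoglycan decorin that fetal mesenchyme makes as well, stood at 81.5, 101, 3.08 and 281 CPM on day 16 and at 1409, 2721, 1159 and 1024 CPM on day 20 (log2 change 3.76, SE 0.90, adjusted p = 0.0066, 4.67 without day 16 replicate 5). CNN1, a calponin of smooth muscle, went from 2.14, 1.75, 0.514 and 3.34 CPM to 17.9, 4.43, 12.03 and 13.7 CPM (log2 change 2.63, SE 0.57, adjusted p = 0.00388). Both were apart between days. The summed level of the 10 listed genes in the table ranged from 14.02 to 304 CPM on day 16 and from 1062 to 2758 CPM on day 20. DCN alone made up nearly all of it on day 20. The 4 that rose were DES, MYH11, CNN1 and DCN, and all but CNN1 also stand in the matrix or the skeletal muscle list.

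Some of the most abundant features carry no gene name in the table. ENSOARG00000005816 held 0.946 to 2.45% of all gene reads on day 16 and at most 0.193% on day 20, that is 22720.0, 20998, 8500.5 and 11091 CPM and 239.8, 450.5, 1760.1 and 669 CPM (log2 change -4.34, SE 0.62, adjusted p = 0.000389, -5.13 without day 20 replicate 4). ENSOARG00000008759 went from 3886, 1968, 1281 and 913 CPM to 7.20, 4.00, 3.62 and 3.14 CPM (log2 change -8.80, SE 0.56, adjusted p = 9e-06), having ranged from 12080.0 to 19006 CPM on day 14. In the other direction, ENSOARG00000011258 went from 10.46, 47.3, 139.7 and 238 CPM to 2331, 1369.8, 2996 and 3878 CPM (log2 change 4.60, SE 0.80, adjusted p = 0.00112, 5.32 without day 16 replicate 5). None of the 3 overlapped between days, and the table describes all 3 only as uncharacterized proteins.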

How the data were processed

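Conceptus RNA was sequenced by the study's authors on days 12, 14, 16 and 20 of pregnancy, and days 14, 16 and 20 (n = 4 each) were used in the main test. Per the file headers, the deposited table gives gene read counts and RPKM per library, with 1 set of columns per library. Sequences were placed on the sheep genome Oar v3.1, per the submitters' processing notes, while the sources used here name neither aligner nor counting rule. Per the file headers, the authors' own fold changes (a signed score) and FDR p-values come from an EDGE test. The RNA of days 14, 16 and 20 was not amplified, per the labels.

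Counts were tested with edgeR 4.0.16 (TMM scaling, filterByExpr, robust quasi-likelihood fit with a term for day, R 4.3.3), and the contrast was day 20 minus day 16 with Benjamini-Hochberg adjustment over 13220 features at a threshold of 0.05. The days 16 and 14 and the days 20 and 16 share the day 16 libraries, so the values of both steps are given side by side without a comparison. Named features are the 15 largest rises and 15 largest falls without overlap and with a mean of at least 10 CPM in the higher group, up to 4 members of each list with the smallest adjusted p, core genes of the conceptus, marker checks, and the members of small counts. The 26 gene lists hold 666 genes, and members and lists were chosen with earlier results of these data known. Features outside that rule, where named, were chosen after their values were seen.

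A fold change of a gene with no read on day 16 was computed against a floor of 3 reads over the 4 libraries, and ratios on 1 to 3 reads carry an exact 95% interval for counting error only. Where leaving out 1 library left no day 16 read, the same floor was used over the other libraries. Differences in mitochondrial share were tested by an exact permutation over libraries. The test was also run on simulated counts with known changes in a small part of the features, drawn from the fitted spread. That run cannot show how the test handles libraries that stand apart or changes in many features. Alternatives were DESeq2 1.42.0, limma 3.58.1 on log2(RPKM + 1), other scalings, filters, days and thresholds, a replicate block, and leaving out each library. Leaving out replicate 4 of day 16 and replicate 1 of day 20 together was chosen after seeing the data. Uterine epithelium was not analysed here. Some members of the lists are counted but not reported here by name.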

Additional observations from a re-analysis of the deposited data

Results flagged for a closer look

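In 23 of 266 groups of 4 libraries, 1 library of a named gene lay farther from the other 3 than Dixon's 95% critical value for 4 values allows. The rate of about 1 in 20 groups flagged by chance holds for normally distributed values. A group with 0 in 3 libraries and any read in the other is always flagged, so that rate does not apply near 0. Replicate 1 of day 20 was the high library in 10 of the 23 flagged groups. In the vessel genes it held CDH5 at 112 CPM against 1.04 to 4.19 CPM in the other 3 and PECAM1 at 107 CPM against 2.84 to 9.64 CPM in the other 3. In the heart genes it held OMYHCS at 185 CPM against 0.348 to 1.00 CPM in the other 3, ACTB_5 at 196 CPM against 0.299 to 1.16 CPM in the other 3 and TNNT2 at 1.41 CPM against 0 in the other 3. In genes of the neural tube and of neurons it held PAX6 at 1.69 CPM against 0 to 0.0771 CPM in the other 3, SOX2 at 0.776 CPM against 0 in the other 3 and STMN2 at 1.91 CPM against 0.0748 to 0.154 CPM in the other 3. In the mesoderm factors it held brachyury (T) at 0.282 CPM against 0 in the other 3 and TBX4 at 5.86 CPM against 0 to 0.435 CPM in the other 3.

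Of the other day 20 libraries, replicate 5 was high with LCP1 at 449 CPM against 179 to 201 CPM in the other 3 and S100G at 94.6 CPM against 25.4 to 36.7 CPM in the other 3. Replicate 3 was high with DDX58 at 129 CPM against 35.6 to 39.7 CPM in the other 3, and replicate 4 was low with ZFP42 at 13.3 CPM against 23.0 to 24.1 CPM in the other 3. On day 16, replicate 5 was high with ELN at 0.698 CPM against 0 to 0.0734 CPM in the other 3, SLC40A1 at 35.8 CPM against 17.3 to 17.8 CPM in the other 3, PRP2 at 0.0776 CPM against 0 in the other 3 and NPPC_2 at 0.0776 CPM against 0 in the other 3, and low with WNT7A at 4.03 CPM against 8.15 to 8.59 CPM in the other 3. Replicate 1 of day 16 was high with IL17F at 121 CPM against 1.32 to 14.2 CPM in the other 3, PRO at 28.9 CPM against 3.15 to 6.26 CPM in the other 3 and PTPRC at 1.07 CPM against 0.22 to 0.291 CPM in the other 3. Replicate 4 of day 16 was high with METTL7B at 0.0734 CPM against 0 in the other 3. The single values of PRP2, NPPC_2 and METTL7B on day 16 rest on 1 read each.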

How the results depend on the processing

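The 5400 calls became 4472 to 5614 when 1 library was left out, with 2166 to 2852 rises, 2306 to 2762 falls and 145 to 190 list members called against 179 with all libraries. Scaling, filter, days, limma and DESeq2 gave 4691 to 6053 calls, of which 45.1 to 54.2% were rises. At an adjusted p under 0.01 there were 3210 calls (1580 rises, 1630 falls, 114 list members), and with a log2 change of at least 1 in size 2228 (1663 rises, 565 falls). Without both day 16 replicate 4 and day 20 replicate 1 there were 4606. Direction reversed in 5 genes given with values: OMYHCS was -0.17 without day 20 replicate 1 and -0.48 without both, ACTB_5 -2.22 and -2.40, CDH5 -0.84 and -1.24, PECAM1 -0.99 and -1.29, and GATA1, at 0.05 with all libraries, -0.26 and -0.21 (also -0.10 without day 16 replicate 5 and -0.04 with the replicate block). Of these OMYHCS was called with all libraries, and ACTB_5 was called lower without replicate 1. The cause was not tested. With 1 library left out, OMYHCS ranged from -0.17 to 6.16 and ACTB_5 from -2.22 to 4.30. Of 107 named genes called, 102 were called in all 8 fits without 1 library.

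With the replicate block (numbers 1, 4 and 5 occur on both days) 3980 features were called, 2008 higher and 1972 lower, and 4 named genes lost their call. The numbers are not shown to pair the libraries, since deviations of same-numbered libraries correlated at 0.126, 0.359 and -0.306 and those of other pairs between -0.343 and 0.361. Depth limits genes with few reads on day 16, whose changes are ratios or lower bounds.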
